A study of Mus musculus with 36 samples.

Results

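The comparison described here set BV-2 microglia given lipopolysaccharide (LPS) and cannabidiol (CBD) against BV-2 microglia given LPS and dimethyl fumarate (DMF), both harvested after 4 h. It comprised 6 of the 36 RNA-seq libraries of the series, 3 for each drug, and its libraries were taken by their group labels. All genes of the deposited table for this pair of groups were considered, 17253 in number, of which 11409 passed the filter on low values (a normalized read count of at least 10 in at least 3 of the 6 libraries). BV-2 is an immortalised murine microglial line of wild-type genotype, so every library came from this 1 line. Cells had received LPS from Escherichia coli at 600 ng/mL, with serum lowered to 0.1% just before the drugs were added, together with 6 µM CBD in ethanol (EtOH) or 30 µM DMF in dimethyl sulfoxide (DMSO), each vehicle at 0.2%. The drug, its dose and its vehicle therefore changed together and cannot be told apart. A further 4 groups of 3 libraries at 4 h served as references, namely LPS alone, LPS with 30 µM monomethyl fumarate (MMF), DMSO without LPS and EtOH without LPS.

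LPS binds the receptor complex of Cd14 and Tlr4 on microglia and drives an inflammatory programme of transcription under NF-kB, and another in which secreted interferon acts back on the cells through its receptor. DMF is an electrophile that modifies cysteines. A well-described target is Keap1, the protein that keeps the transcription factor Nrf2 low, and released Nrf2 switches on genes of glutathione, thioredoxin, heme, iron and NADPH metabolism. CBD is a non-psychotropic cannabinoid of Cannabis sativa. The comparison asked how the transcriptional states under the 2 drugs differed while the same stimulus was present.

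The 6 libraries held 15622361 to 16878332 reads in genes and 14594 to 14863 genes with at least 1 read, and 1.97 to 2.25% of reads came from mitochondrial genes. Microglia and macrophage markers were high as a sum in all of them. The summed normalized read count of 15 microglia and macrophage markers ranged from 99698 to 115601 with CBD and from 80517 to 93574 with DMF, whereas in the same libraries the 6 neuron markers in the table summed to at most 193, the 5 astrocyte markers to at most 28.1 and the 3 fibroblast markers to at most 13. Lyz2 (32442 to 45678) and Cd14 (15439 to 23585) made up much of the microglia and macrophage sum. Tmem119 (19.1 to 58.9) and Aif1 (22.3 to 56.0) were low, and Sall1 was not among the genes listed. The 5 oligodendrocyte markers summed to between 739 and 995, almost all of it Mbp. None of the neuron, astrocyte and oligodendrocyte markers that passed the filter, among them Map2, Gfap and Mbp, was called between the drugs.

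Of the 11409 genes tested, 1770 (15.5%) differed between the drugs at an adjusted p below 0.05. CBD libraries had the higher level in 1033 of them (9.05% of genes tested) and DMF libraries in 737 (6.46%). Log2 fold changes are given as CBD over DMF throughout, so a negative value means a higher level with DMF, and they were computed on log2(normalized read count + 1), which understates changes of weakly expressed genes. The median over all genes tested was -0.01, and 463 of the 1770 genes passed an absolute log2 fold change of 1, 354 higher with CBD and 109 higher with DMF. The count was 1066 without CBD replicate 1, 1020 without CBD replicate 2, 862 without CBD replicate 3 and 907 without DMF replicate 3. TMM, edgeR and DESeq2 kept more genes higher with CBD than with DMF, whereas removing a trend over gene GC content and length turned the balance to 1074 genes higher with CBD and 1565 higher with DMF. The median transcript GC content was 50.5% for genes higher with CBD, 48.0% for genes higher with DMF and 49.4% for all genes tested, and its part in the balance was not tested further.

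**Figure D1:**
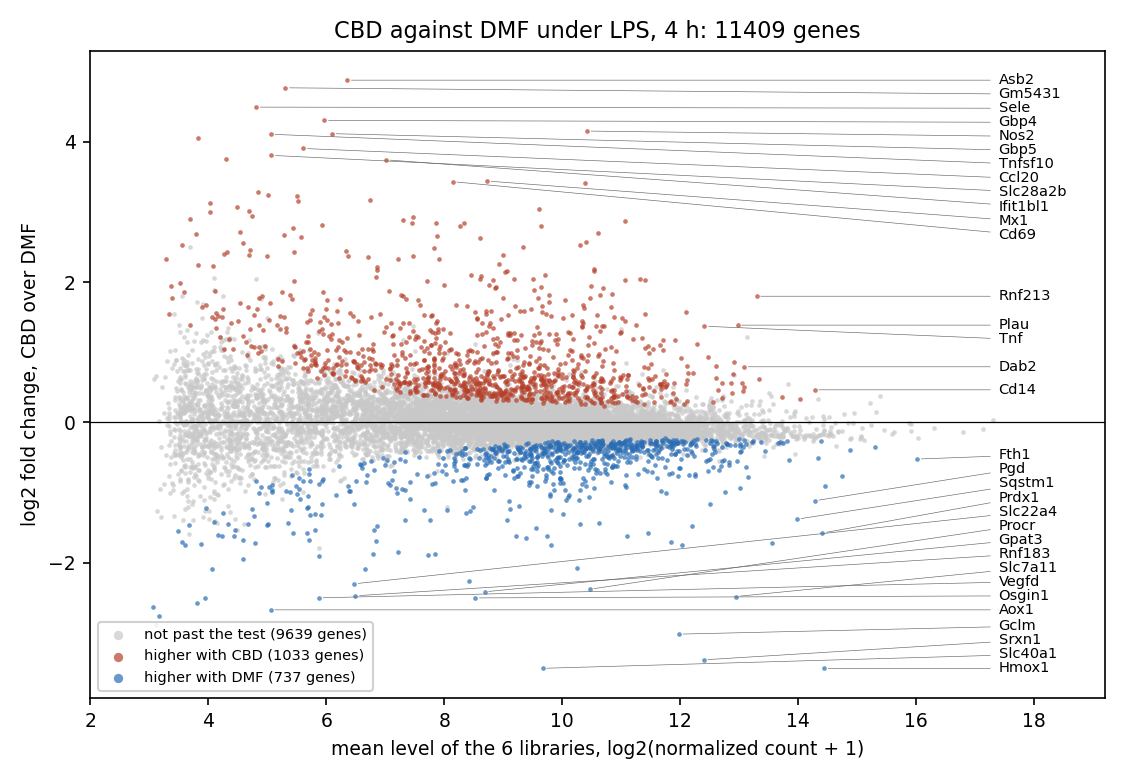
Log2 fold change of CBD over DMF (vertical axis) against the mean level of the 6 libraries as log2(normalized read count + 1) (horizontal axis) for 11409 genes, 1 point each. Red points are the 1033 genes higher with CBD, blue points the 737 genes higher with DMF and grey points the 9639 that did not pass the test. The 33 labelled genes are those described by rule, from Asb2 at 4.88 to Hmox1 at -3.50.

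The largest changes toward DMF were those of a heme gene and an iron gene. Hmox1, heme oxygenase 1, which splits heme into biliverdin, carbon monoxide and iron (GRCm39, chr8:75820249-75827217, plus strand), had normalized read counts of 3393, 3885 and 3456 with CBD and of 33719, 43244 and 45606 with DMF. The DMF libraries lay 11.3-fold higher (log2 fold change -3.50 ± 0.12 SE, adjusted p = 1.03e-06), and LPS alone, at 3312, 4397 and 3375, overlapped the CBD libraries. Slc40a1, ferroportin, the only known cellular iron exporter (chr1:45947228-45965683, minus strand), stood at 159, 127 and 109 with CBD against 1718, 1359 and 1401 with DMF, again 11.3-fold higher with DMF (log2 fold change -3.50 ± 0.15 SE, adjusted p = 2.79e-06). Blvrb, a biliverdin reductase, was 4.22-fold and Slc48a1, which moves heme out of the lysosome, 3.27-fold higher with DMF. The 2 ferritin subunits differed less, by 1.86-fold for Ftl1 and 1.44-fold for Fth1, and reads of both may be shared with their many processed copies. Fth1 was the least firm of these calls (log2 fold change -0.52 ± 0.14 SE, adjusted p = 0.0354), since it did not pass without CBD replicate 2 (adjusted p = 0.123), CBD replicate 3 (0.132), DMF replicate 1 (0.0677) or DMF replicate 3 (0.0883).

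The glutathione and thioredoxin systems moved the same way. Gclm, the regulatory subunit of the enzyme that limits glutathione synthesis (chr3:122039206-122064381, plus strand), measured 899, 895 and 857 with CBD and 7946, 6042 and 7610 with DMF, an 8.09-fold difference (log2 fold change -3.02 ± 0.11 SE, adjusted p = 1.05e-06). Its catalytic partner Gclc was 3.35-fold higher with DMF, from 1920 ± 21.2 with CBD to 6430 ± 164 with DMF (SD, n = 3 each). Slc7a11, the cystine importer that feeds this synthesis, held 2343, 2967 and 1973 with CBD and 11874, 14346 and 13977 with DMF (log2 fold change -2.48 ± 0.14 SE, adjusted p = 2.16e-05), and glutathione reductase Gsr was 2.79-fold higher with DMF. Srxn1, sulfiredoxin, which repairs over-oxidised peroxiredoxins (chr2:151947436-151953296, plus strand), had the smallest adjusted p of all named genes, with 1059, 907 and 878 in CBD libraries and 9647, 10267 and 9658 in DMF libraries (10.4-fold, log2 fold change -3.38 ± 0.09 SE, adjusted p = 2.0e-07). Its substrate Prdx1 was 2.98-fold, thioredoxin reductase Txnrd1 3.29-fold and thioredoxin Txn1 1.45-fold higher with DMF. For each of these genes the lowest DMF library exceeded the highest CBD library.

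Over the whole list of 20 Nrf2 targets, 19 were higher with DMF and none was higher with CBD, with a median log2 fold change of -1.64 against -0.01 over all genes tested. All 20 had their DMF libraries above their CBD libraries, a separation found in 17.6% of genes tested. The remaining member, Gstm1, measured 433 ± 41.9 with CBD and 574 ± 92.0 with DMF (SD, n = 3 each) and had an adjusted p of 0.0808, which became 0.0136 in a fit blocked on replicate number. Other members included Cat (catalase, 2.99-fold), Osgin1 (5.65-fold) and the autophagy receptor Sqstm1 (2.60-fold). Nqo1, a widely used Nrf2 reporter, was scarce in this line, at 6.55 to 12 with CBD and 26.5 to 53.1 with DMF, and was 3.85-fold higher with DMF. Enzymes that supply NADPH followed in part. Pgd (2.17-fold), Me1 (2.14-fold), Taldo1 (1.59-fold) and G6pdx (1.54-fold) were higher with DMF, the NAD kinase Nadk was 1.23-fold higher with CBD (adjusted p = 0.0452, a call kept when DMF replicate 2 was left out but not when any other library was), and the other 3 of 8 members (Idh1, Tkt, Pgls) did not pass.

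The upstream sequence of Gclm is given because, among the called Nrf2 targets on record in the RefSeq promoter table (GRCm38.p6), it had the largest fold change with a match within 250 bases before the start to the core of the antioxidant response element, TGACNNNGC, read on both strands. The 250 bases before its start (chr3:122245307-122245556, plus strand) hold 1 match, on the opposite strand, 126 to 134 bases before the start, shown in capitals.
Gclm: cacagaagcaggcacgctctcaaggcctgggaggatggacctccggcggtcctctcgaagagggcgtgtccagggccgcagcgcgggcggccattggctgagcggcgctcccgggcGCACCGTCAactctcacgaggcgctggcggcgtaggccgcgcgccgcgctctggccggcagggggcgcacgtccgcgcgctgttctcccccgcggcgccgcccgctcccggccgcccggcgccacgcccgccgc
Of the 15 Nrf2 targets with a promoter entry, 4 (Srxn1, Gclm, Txnrd1, Prdx1) held a match in the window from 250 bases before to 50 after the start, or 26.7%, beside 17.1% of the 9021 tested genes with an entry. Among all genes higher with DMF the share was 22.3%, and among all genes higher with CBD 15.7%. Hmox1, Gclc, Gsr, Slc48a1 and Abcc1 had no entry. A match describes letters in the window and does not show a bound site.

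Several genes outside these lists belonged to the 12 with the largest change toward DMF. They were the aldehyde oxidase Aox1 (6.36-fold), the lymphatic growth factor Vegfd (5.65-fold), the ubiquitin ligase Rnf183 (5.54-fold), the acyltransferase of triglyceride synthesis Gpat3 (5.32-fold), the protein C receptor Procr (5.19-fold) and the ergothioneine and carnitine transporter Slc22a4 (4.92-fold). Procr was the most abundant of them, with 466, 471 and 430 in CBD libraries and 2585, 2369 and 2165 in DMF libraries (log2 fold change -2.38 ± 0.09 SE, adjusted p = 1.49e-06). Aox1 and Vegfd were scarce with CBD, at 4.00 to 11.2 and 11 to 21.5, so their folds rest on few reads.

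Lists of other stress programmes held genes higher with DMF as well, beside 6.46% of all genes tested. One list held genes of the amino acid and integrated stress response around the factor Atf4, with Atf4 itself among them. Of its 16 tested members, 11 were higher with DMF and none with CBD (median log2 fold change -0.59). The number was 7 without CBD replicate 2, CBD replicate 3 or DMF replicate 3. Trib3, a pseudokinase that restrains Atf4 signalling, led with 368, 414 and 443 in CBD libraries and 994, 1576 and 1611 in DMF libraries (log2 fold change -1.74 ± 0.18 SE, adjusted p = 0.000495). Atf4 itself was 1.71-fold, Slc3a2, the heavy chain that partners Slc7a11, 1.90-fold and Chac1, a glutathione-degrading enzyme, 2.45-fold higher with DMF, whereas Ddit3 (219.98 ± 23.3 with CBD and 241 ± 26.5 with DMF, SD, n = 3 each) did not pass. Among 14 heat shock genes 5 were higher with DMF, Hsph1 by 1.52-fold and Hsp90aa1, Hspa8, Hspa4 and Hspb1 as well, and the number was 9 in the blocked fit. It was 2 without CBD replicate 1 or DMF replicate 3, 3 without CBD replicate 2 or CBD replicate 3 and 8 without DMF replicate 1. Of 12 p53 targets, 5 were higher with DMF, most of all Trp53inp1 (1.72-fold), and 1 or 2 were without CBD replicate 1, CBD replicate 2, CBD replicate 3 or DMF replicate 3, while Cdkn1a gave a log2 fold change of -0.05. No member of 14 chaperones of the endoplasmic reticulum passed the test, their log2 fold changes lying between -0.31 and 0.22, and 1 passed with the block.

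Genes that LPS raised were called higher with CBD more often than higher with DMF. LPS alone differed from DMSO in 14.1% of 11424 genes tested and from EtOH in 10.2% of 11491, and 558 genes were raised against both vehicles while 378 were lowered against both, in libraries that do not enter the CBD and DMF comparison. Of the 557 LPS-raised genes tested, 263 (47.2%) were higher with CBD and 39 (7.0%) higher with DMF, and the median log2 fold change was 0.43. Of the 378 LPS-lowered genes, 71 (18.8%) were higher with CBD and 19 (5.03%) higher with DMF, with a median of 0.14. The remaining 10474 genes gave 6.67% and 6.48%. The smaller counts changed when single libraries were left out. The 71 LPS-lowered genes higher with CBD became 37 without CBD replicate 1, 41 without CBD replicate 2, 34 without CBD replicate 3 and 36 without DMF replicate 3. The 19 higher with DMF became 11 without CBD replicate 1 or CBD replicate 2, 7 without CBD replicate 3 or DMF replicate 3 and 36 without DMF replicate 1, and 32 in the blocked fit. The 39 LPS-raised genes higher with DMF became 23 without CBD replicate 1, 22 without CBD replicate 3 and 24 without DMF replicate 3.

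Inflammatory mediators were among the genes with the widest gap in favour of CBD. Nos2, the inducible nitric oxide synthase (chr11:78811613-78851080, plus strand), had normalized read counts of 1354, 4234 and 1983 in CBD libraries and 54.2, 522 and 69.3 in DMF libraries, 17.8-fold higher with CBD (log2 fold change 4.15 ± 0.76 SE, adjusted p = 0.00643). Replicate 2 was the highest library of each group, and of LPS alone as well (988, 4144 and 1348). Tnf (chr17:35418357-35420983, minus strand) was more even, at 8222, 7447 and 7830 with CBD and 3706, 3061 and 2442 with DMF (2.59-fold, log2 fold change 1.37 ± 0.13 SE, adjusted p = 0.000414). The interleukins Il1b (10.6-fold) and Il1a (5.64-fold), the Il12 family member Il27 (6.38-fold), the chemokines Ccl20 (15.0-fold), Ccl7 (7.19-fold), Cxcl10 (5.23-fold) and Ccl2 (4.10-fold), the siderophore-binding protein Lcn2 (7.14-fold) and Hcar2, the receptor for hydroxybutyrate and monomethyl fumarate (3.90-fold), were all higher with CBD. Ccl20 was at 7.42 or below in every DMF library, so its fold is imprecise. Ccl2 measured 5527, 3481 and 3944 with CBD, 1559, 867 and 815 with DMF and 5664, 3118 and 4410 with LPS alone.

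In total 21 of 31 inflammatory mediators tested were higher with CBD and 1 was higher with DMF, with a median log2 fold change of 1.37. The shares over all genes tested were 9.05% and 6.46%. The exception was Ptgs2, cyclooxygenase 2, one of the most abundant members, with 18456, 24717 and 17564 in CBD libraries, 30368, 42925 and 29963 in DMF libraries and 18048, 23483 and 16724 with LPS alone. It was 1.70-fold higher with DMF (log2 fold change -0.76 ± 0.17 SE, adjusted p = 0.0147) and lost that call without CBD replicate 1 or CBD replicate 3. Cxcl2 measured 9520 ± 1244 with CBD and 8281 ± 2607 with DMF (SD, n = 3 each), and its log2 fold change of 0.25 had a 95% interval from -0.23 to 0.72. Il6 was weakly expressed, at 25 to 70.9 with CBD and 2.89 to 25 with DMF (adjusted p = 0.0663, and 0.023 with the block). Il12b, Il10 and Cxcl1 fell below the filter.

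Within the NF-kB pathway the genes higher with CBD were mainly members of the IkB family and feedback regulators. Nfkbia (2.04-fold), Nfkbie (2.45-fold), Nfkbiz, Nfkbid, Bcl3, Tnfaip3, Tnip1 and the kinase Ikbke (4.55-fold) were higher with CBD. They made 8 of 18 members, beside 9.05% of all genes tested. Ikbke held 2432, 2612 and 2208 in CBD libraries and 635, 589 and 398 in DMF libraries. The subunits Rela, Relb, Rel and Nfkb2 did not pass, with log2 fold changes between -0.09 and 0.17, nor did Nfkb1 (0.41, adjusted p = 0.115, and 0.00393 with the block). Ikbkg, the regulatory subunit of the IkB kinase, went the other way, at 1473, 1651 and 1385 with CBD and 2682, 3131 and 2589 with DMF (1.86-fold, adjusted p = 0.000631). Without single libraries the number higher with CBD ranged from 6 to 10.

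Interferon-response genes were higher with CBD almost without exception. Of 26 tested, 24 were higher with CBD and none with DMF, with a median log2 fold change of 2.07, and the CBD libraries lay wholly above the DMF libraries in 23, against 18.5% of all genes tested. Mx1, an antiviral GTPase (chr16:97248235-97264107, minus strand), held 412, 1211 and 708 with CBD and 44.8, 101 and 58.7 with DMF (10.8-fold, log2 fold change 3.44 ± 0.39 SE, adjusted p = 0.000655). Ifit1 (7.29-fold), which recognises viral RNA ends, its family member Ifit3 (8.24-fold), the ubiquitin-like Isg15 (4.09-fold) and the helicase Ddx60 (9.31-fold) followed. Guanylate-binding proteins were higher with CBD throughout the list, Gbp5 from 58.0, 212 and 117 with CBD to 5.21, 8.48 and 3.85 with DMF (17.3-fold). Gbp5 was below the minimum of 10 in every DMF library, so its fold is imprecise. Gbp4 (19.7-fold) and the Ifit family member Ifit1bl1 (13.4-fold) were among the 12 largest changes, and Rnf213, a giant ubiquitin ligase, had the largest difference of means among called genes whose CBD libraries all exceeded their DMF libraries (14066, 19050 and 13560 against 3406, 6090 and 4164). With DMF, Gbp4 measured 1.04, 13.8 and 2.89, Ddx60 5.21, 14.8 and 4.81 and Ifit1bl1 10.4, 31.8 and 8.66. Each fell below the minimum of 10 in part of its DMF libraries, so these folds are imprecise as well. Gbp and Ifit genes have near-identical relatives, so reads could be split among them. Ifnb1 was below the filter.

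The spread of this group followed the replicate number. In all 26 genes replicate 2 was the highest library with CBD, with DMF, with LPS alone and with MMF, whereas over all genes tested it was the highest in both the CBD and the DMF group for 21.8%. CBD exceeded DMF in each of the 3 same-numbered pairs for all 26 genes, beside 3217 of the 11409 genes tested. The 26 genes moved together across replicates, so they are not separate observations. Irf7, the amplifier of the interferon loop, overlapped between the groups, at 1572, 4294 and 2534 with CBD and 632, 2492 and 672 with DMF (adjusted p = 0.113), and it passed in the blocked fit (0.00089), as did Isg20 (0.0824 without and 0.00294 with the block).

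The upstream 250 bases of Gbp5, Ddx60 and Ifit3 are shown because they had the largest fold changes among called interferon-response genes with a match to the core of the interferon-stimulated response element, 2 copies of GAAA separated by any 2 bases, on either strand. In the RefSeq table (GRCm38.p6) they lie at chr3:142496684-142496933, chr8:61927837-61928086 and chr19:34583279-34583528, all on the plus strand. Capitals mark the matches, 1 in Gbp5 (156 to 165 bases before the start), 2 in Ddx60 (44 to 53 and 10 to 19) and 2 in Ifit3 (147 to 156 and 113 to 122).
Gbp5: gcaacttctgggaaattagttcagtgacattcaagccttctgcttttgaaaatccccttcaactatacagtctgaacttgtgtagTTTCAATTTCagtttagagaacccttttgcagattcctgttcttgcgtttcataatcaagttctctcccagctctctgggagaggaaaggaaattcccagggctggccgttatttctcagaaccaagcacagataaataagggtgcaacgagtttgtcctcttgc
Ddx60: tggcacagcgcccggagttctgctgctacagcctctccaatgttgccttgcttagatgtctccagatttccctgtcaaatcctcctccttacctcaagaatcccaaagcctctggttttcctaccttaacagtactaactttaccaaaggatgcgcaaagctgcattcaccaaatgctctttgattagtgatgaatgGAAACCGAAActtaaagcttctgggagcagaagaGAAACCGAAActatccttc
Ifit3: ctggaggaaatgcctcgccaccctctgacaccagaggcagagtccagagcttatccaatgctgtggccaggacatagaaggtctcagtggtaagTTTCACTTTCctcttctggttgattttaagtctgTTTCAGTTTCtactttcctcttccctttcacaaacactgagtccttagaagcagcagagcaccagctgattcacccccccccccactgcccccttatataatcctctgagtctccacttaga
The motif was present in 14 of the 22 interferon-response genes with an entry (63.6%), in 10.2% of all genes higher with CBD, in 3.07% of genes higher with DMF and in 3.94% of the 9021 tested genes with an entry, all in the 300-base window.

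**Figure D2:**
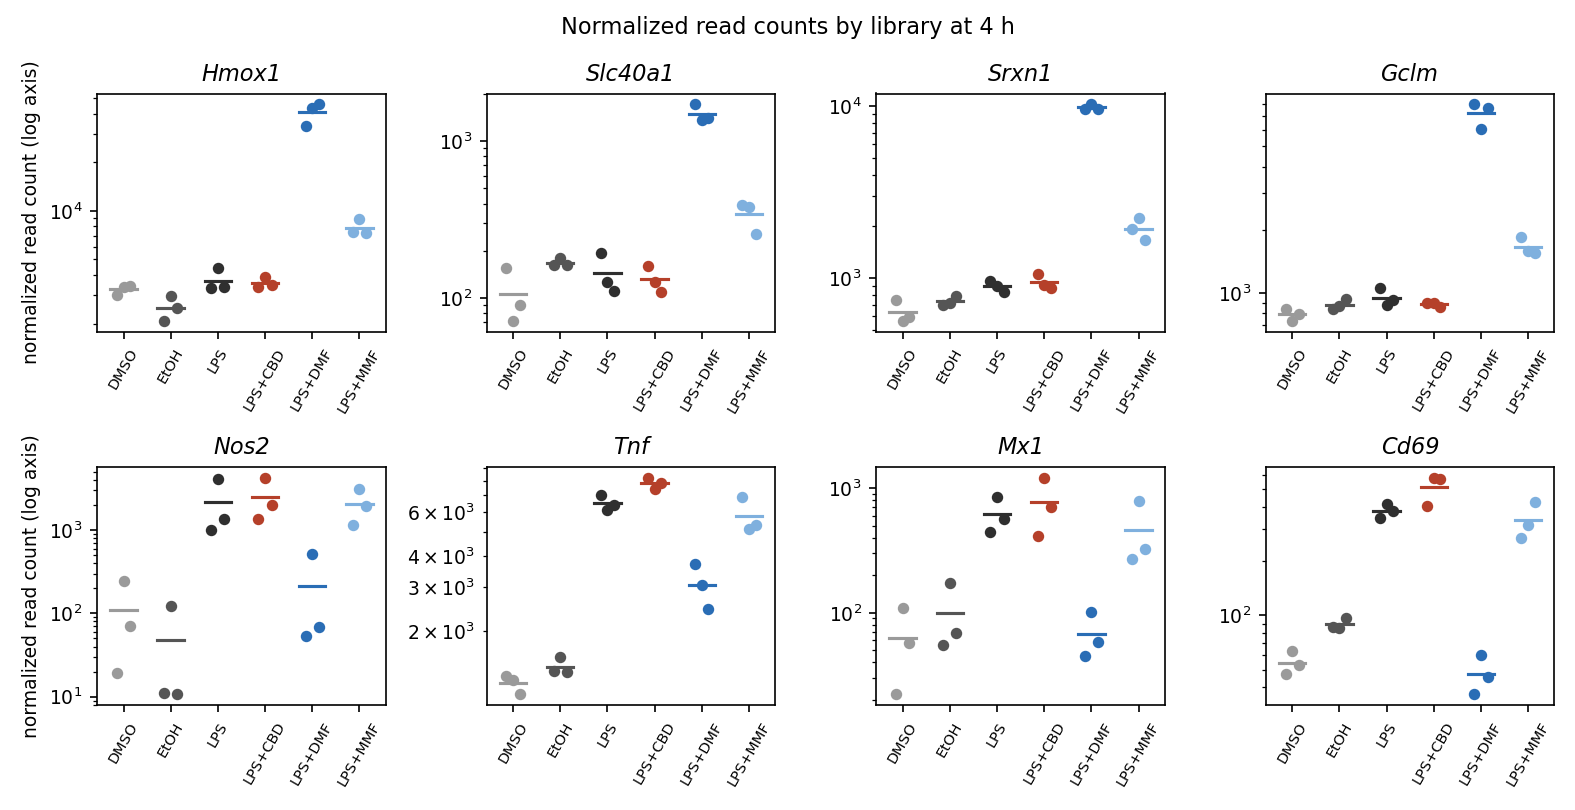
Normalized read counts (vertical log axis, each panel with its own range) of 8 genes in the 6 groups at 4 h, 1 point per library with a bar at the group mean (n = 3). Hmox1, Slc40a1, Srxn1 and Gclm stand alone at the top with DMF and sit near LPS alone with CBD, while Nos2, Tnf, Mx1 and Cd69 are low with DMF and near LPS alone with CBD.

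The largest fold change of all was that of Asb2, the substrate-binding subunit of a ubiquitin ligase (chr12:103287401-103322260, minus strand), with 134, 168 and 169 in CBD libraries and 5.21, 7.42 and 1.93 in DMF libraries (29.4-fold higher with CBD, log2 fold change 4.88 ± 0.38 SE, adjusted p = 0.000113). Asb2 was below the minimum of 10 in every DMF library, so it passed the filter through the CBD libraries alone and its fold is imprecise. The early activation antigen Cd69 was nearly as separated at a higher level, 404, 578 and 567 against 36.5, 60.4 and 45.2 (10.8-fold, adjusted p = 3.0e-05). The adhesion molecule Sele (22.5-fold), the death ligand Tnfsf10 (17.2-fold), the nucleoside transporter Slc28a2b (14-fold) and the predicted gene Gm5431 (27.2-fold) were at 8.34 or below in every DMF library, so their folds are imprecise, and Gm5431 and Slc28a2b have close relatives that could share reads. Among abundant genes, the urokinase Plau was 2.61-fold higher with CBD (14924, 9097 and 11018 against 5065, 3859 and 4282), the endocytic adaptor Dab2 1.73-fold and the LPS co-receptor Cd14 1.38-fold. Cd14 lost its call without CBD replicate 3 (adjusted p = 0.0506).

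Cell surface receptors differed in both directions. Of 12 chemokine and purine receptors tested, 6 were higher with CBD and 1 with DMF (median log2 fold change 1.06). Over all genes tested, 9.05% were higher with CBD and 6.46% with DMF. Cx3cr1, the fractalkine receptor, measured 279, 199 and 237 with CBD and 84.4, 55.1 and 63.5 with DMF (3.50-fold, adjusted p = 0.000571), Ccrl2 was 5.00-fold, P2ry13 3.43-fold, the adenosine receptor Adora2b 2.72-fold and the UDP receptor P2ry6 2.14-fold higher. Cxcr4 was the opposite case, at 98.3, 82.9 and 103 with CBD and 383, 237 and 463 with DMF (3.66-fold higher with DMF, adjusted p = 0.000934). In the cannabinoid system, Cnr2, which encodes the CB2 receptor, was low but clearly separated, at 89.9, 103 and 93.0 with CBD against 26.1, 25.4 and 25 with DMF (3.63-fold, log2 fold change 1.86 ± 0.18 SE, adjusted p = 0.00036). LPS alone lay beside CBD for Cnr2, at 88.6, 86.7 and 82.0. Napepld and Daglb, enzymes that make endocannabinoids, were higher with CBD by 1.29-fold and 1.48-fold, while Faah, Mgll, Abhd12, Trpv2 and Fabp5 did not pass. The number called in the list, 3, was 1 without CBD replicate 1, CBD replicate 2, CBD replicate 3 or DMF replicate 3. Of 15 microglia and macrophage markers, 4 (Csf1r, Ptprc, Spi1, Cd14) were higher with CBD, by 1.37-fold to 1.62-fold. The number was 2 without CBD replicate 1, CBD replicate 2, DMF replicate 1 or DMF replicate 3, and 1 without CBD replicate 3.

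Of 8 zinc-response genes tested, 2 were higher with CBD and 1 with DMF, beside 9.05% and 6.46% of all genes tested. By level, some of them stood away from LPS alone with CBD. Only 1 of the 8, Slc30a1, was called for CBD against LPS alone, so Mt2 and Slc39a10 were not. Mt2, a metallothionein, measured 33.7, 41.0 and 29.0 with CBD, 11.5, 8.48 and 9.63 with DMF and 7.79, 15.6 and 5.86 with LPS alone (3.26-fold higher with CBD than with DMF, adjusted p = 0.00418). Mt1 was 14998, 12740 and 9951 with CBD and 10174, 7224 and 7206 with DMF, overlapping in 1 library (adjusted p = 0.0396), and 1 of the 2 metallothionein calls was lost without CBD replicate 1, CBD replicate 2, DMF replicate 2 or DMF replicate 3. The zinc importer Slc39a10 was lower with CBD, at 462, 557 and 594 against 1166, 1351 and 1282 with DMF and 1083, 1054 and 941 with LPS alone (log2 fold change -1.24 ± 0.11 SE, adjusted p = 0.000256). Slc30a1, the zinc exporter, did not separate the drugs, with a log2 fold change of 0.19 (95% interval -0.09 to 0.47), and stood above LPS alone with each (1796, 1656 and 1304 with CBD, 1316, 1296 and 1535 with DMF, 702, 615 and 650 with LPS alone). Of the 8 zinc-list promoters, 5 held TGCACNC or TGCGCNC, letters of the metal response element, on either strand, or 62.5% beside 40.1% of all tested genes with an entry.

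Immediate early factors and feedback phosphatases were called in both directions (median log2 fold change 0.09), and 17 were not called. Over all genes tested, 9.05% were higher with CBD and 6.46% higher with DMF. Fos (3.89-fold), Dusp6 (2.26-fold) and Junb were higher with CBD, and Fosl1 (2.37-fold), Maff, Mafk, Klf6 and Dusp5 higher with DMF, out of 25 tested, and 7 were higher with CBD in the blocked fit. Without DMF replicate 2 the numbers were 7 and 3, and those higher with DMF fell to 2 or 3 without CBD replicate 1, CBD replicate 2, CBD replicate 3 or DMF replicate 3. Fos measured 377, 451 and 392 with CBD and 109, 108 and 93.4 with DMF (adjusted p = 3.95e-05). Cell division genes showed little difference, with Ccnd1, cyclin D1, 1.91-fold higher with CBD (7599, 7284 and 7424 against 3696, 4114 and 3847, adjusted p = 0.000103), Aurka and Cdc20 higher with DMF and 21 of 24 not called, and 5 were higher with DMF in the blocked fit or without DMF replicate 1. Aurka and Cdc20 were not both called without CBD replicate 1, CBD replicate 2, CBD replicate 3 or DMF replicate 3. Sterol synthesis genes did not pass in 18 of 20 cases. Insig1 and Mvk were each 1.37-fold higher with CBD, and 5 members were in the blocked fit, against 1 without CBD replicate 2 and 0 without DMF replicate 3. Of 13 genes of cholesterol efflux and lipid droplets only Apoe passed, 1.57-fold higher with DMF, and with the block 2 members were higher with each drug.

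**Figure D3:**
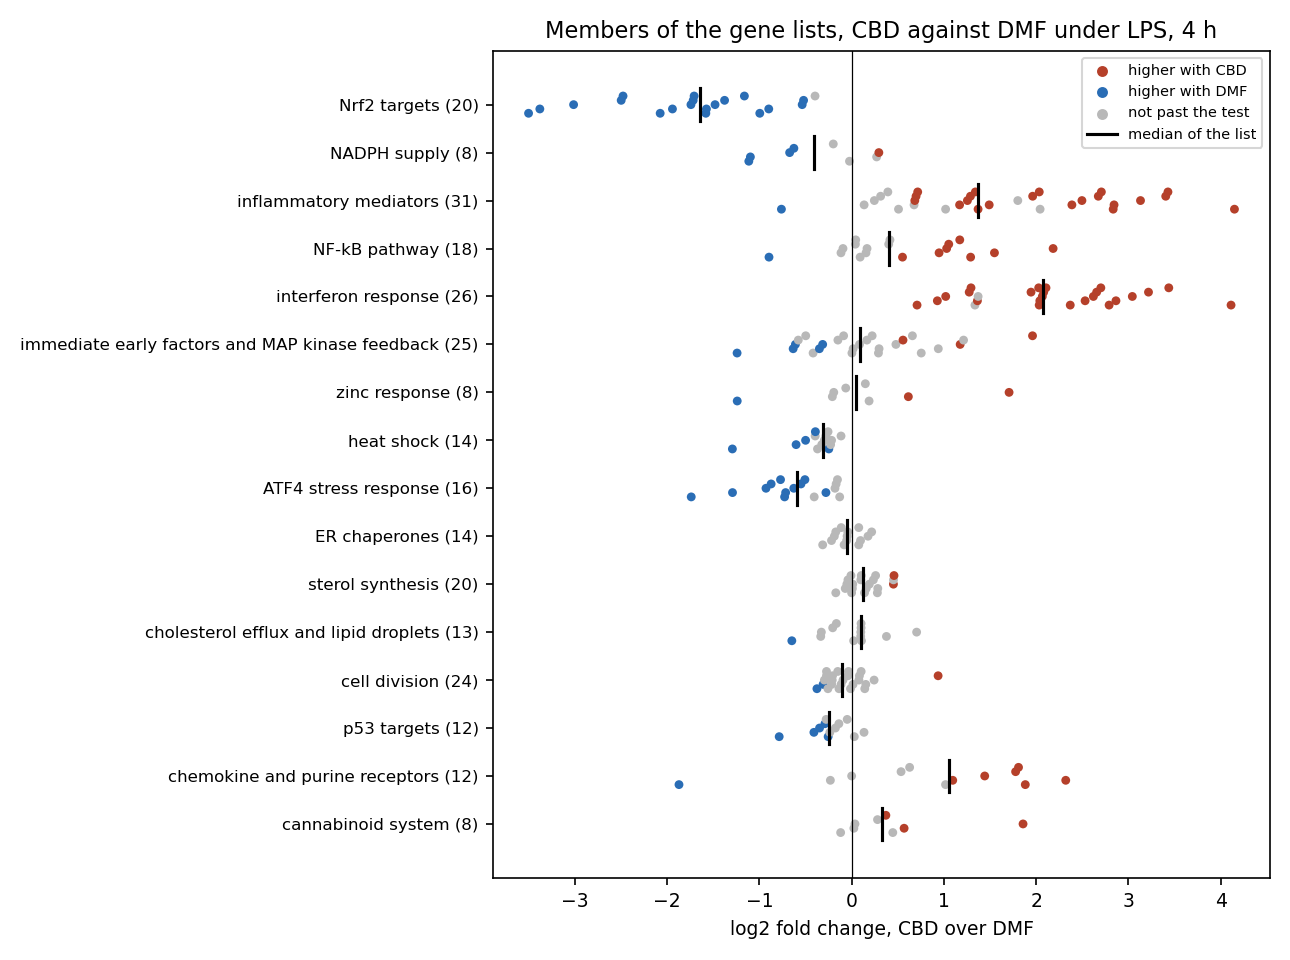
Log2 fold change of CBD over DMF (horizontal axis) for the tested members of 16 gene lists, with the number of members in brackets, 1 point per gene and a black bar at the median of each list. Red and blue points passed the test in favour of CBD and DMF, grey points did not. The Nrf2 targets lie to the left of 0 (median -1.64) and the interferon-response genes to the right (median 2.07).

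LPS alone lay nearer CBD than DMF for 1720 of the 1770 called genes (97.2%), beside 71.4% of all genes tested. Against LPS alone, 1 of 11424 genes (0.00875%) was called with CBD, Slc30a1, and 363 (3.18%) had an unadjusted p below 0.05, while 1257 of 11371 (11.1%) were called with DMF. These 2 comparisons share their LPS libraries, so their values are only set side by side. Hmox1 stood at -0.04 with CBD and 3.46 with DMF as log2 fold change over LPS alone, Nos2 at 0.34 and -3.81, and Asb2 at 0.25 and -4.62. For all 33 named genes the CBD value lay between -0.20 (Sqstm1) and 0.73 (Vegfd), and 32 of them were called with DMF. Over the 20 Nrf2 targets the medians were -0.05 with CBD and 1.55 with DMF, and over the 26 interferon-response genes 0.09 and -2.05. MMF at the dose of DMF was also nearer CBD than DMF for 91.8% of called genes, beside 72.3% of all genes tested, with a mean of 7875 for Hmox1 and 2064 for Nos2.

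**Figure D4:**
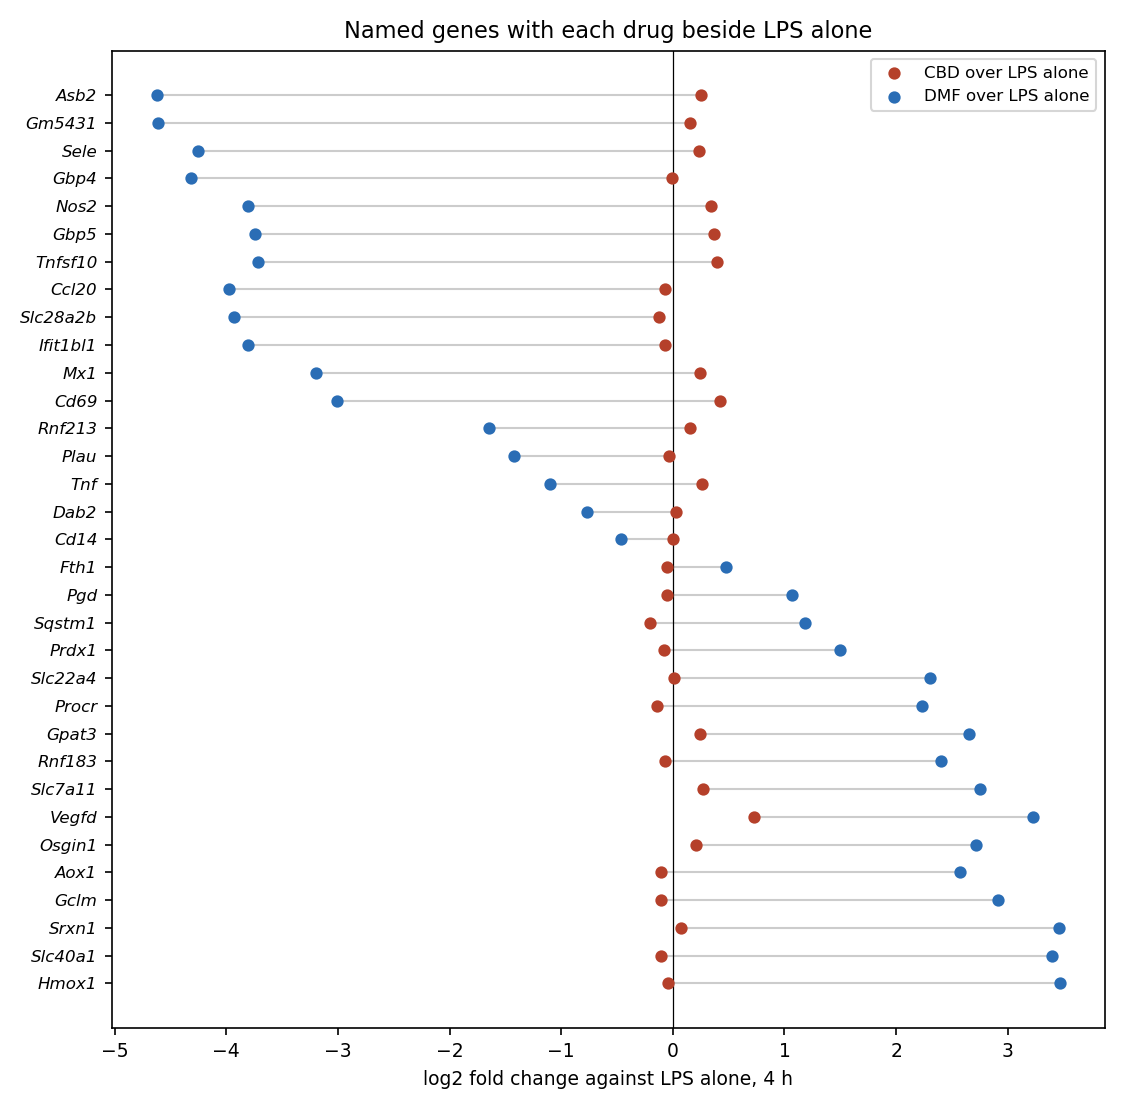
Log2 fold change over LPS alone at 4 h (horizontal axis) for the 33 named genes, with CBD in red and DMF in blue, joined by a grey line for each gene. The red points stay between -0.20 and 0.73, while the blue points spread from -4.62 (Asb2) to 3.46 (Hmox1). The 2 sets of points share the LPS libraries.

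The vehicles were compared without LPS. None of 11458 genes differed between DMSO and EtOH at an adjusted p below 0.05 (0%), with 1051 (9.17%) at an unadjusted p below 0.05, and 876 (7.65%) were called once the replicate number was a block. Of the 30 named genes tested, none was called without the block and 10 were called with it. The log2 difference of DMSO over EtOH was 0.40 for Hmox1, in the direction of its DMF level, and -0.73 for Slc40a1, against it. For Nos2 it was 1.46, opposite to the higher level with CBD, and over all 30 it ranged from -0.73 to 1.46. The part of the vehicles in the difference between the drugs under LPS was not tested.

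The difference between the drugs changed with time. In a fit of 12 libraries that added CBD and DMF at 24 h, 3355 of 12035 genes (27.9%) had a different CBD over DMF log2 fold change at 24 h than at 4 h. Of the 33 named genes 31 did. They had been chosen for large differences at 4 h, and the 4 h values enter this contrast, so a shift toward 0 is partly built in and their number is not to be read against the share of all genes. Hmox1 went from -3.50 at 4 h to 1.26 at 24 h, Slc40a1 from -3.50 to 0.90 and Asb2 from 4.88 to -3.54, whereas Gclm was at 0.02 and Cd69 at 0.16 at 24 h. The 4 h values given here are from the fit of 6 libraries and the 24 h values from the fit of 12. Mx1 (1.60) and Gbp5 (1.56) were still higher with CBD. The Nrf2 list had a median of -0.04 at 24 h, with 18 of 20 members changed, and the interferon-response list a median of 0.89, with 14 of 26 changed.

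**Figure D5:**
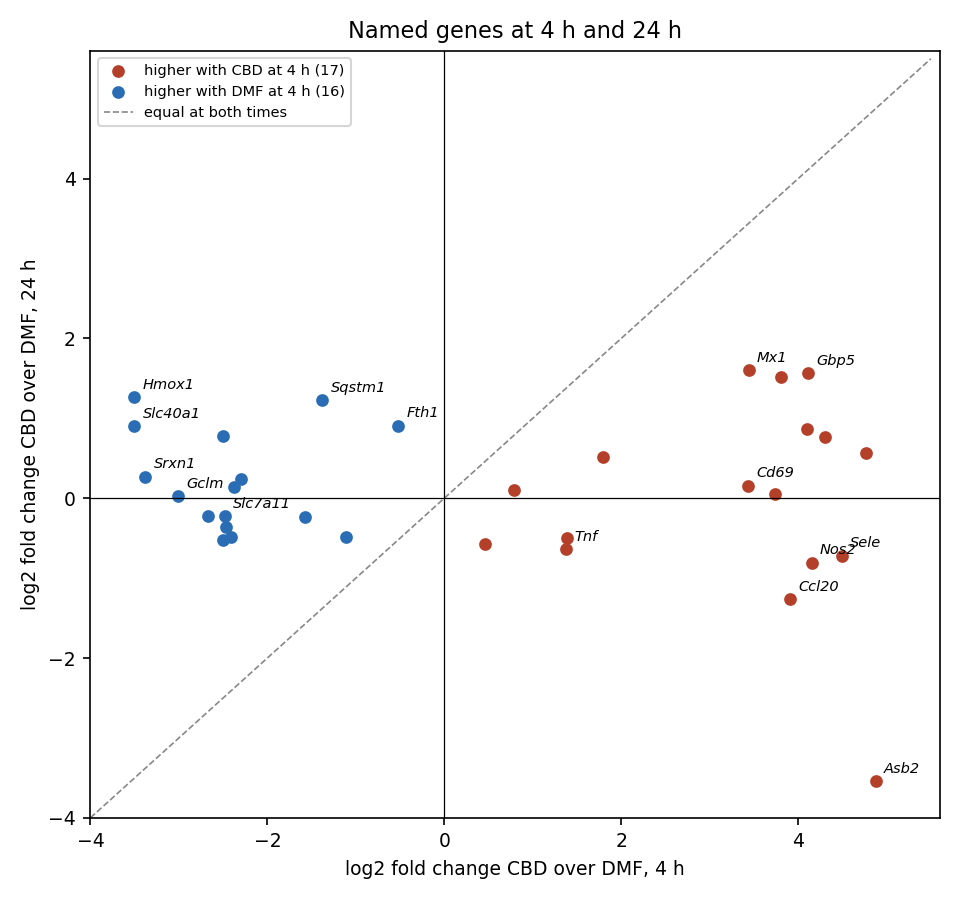
Log2 fold change of CBD over DMF at 24 h (vertical axis) against that at 4 h (horizontal axis) for the 33 named genes, red for the 17 higher with CBD and blue for the 16 higher with DMF at 4 h. The dashed line marks equal values. Most points lie nearer 0 at 24 h than at 4 h. At 24 h, 8 genes were called in the opposite direction to 4 h, among them Hmox1 (1.26) and Asb2 (-3.54).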

How the data were processed

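RNA-seq had been run on BV-2 cells in 36 libraries, 12 groups of 3. The protocol repeats each experiment 3 times without naming separate cultures, so p-values measure the spread between these libraries. Per the labels, the submitters' processing notes name FastQC 0.12.1, cutadapt 4.4, Trimmomatic 0.39, HISAT2 2.2.1, HTSeq 2.0.3, R 4.3.1 and DESeq2 1.40.2, with build GRCm39. Whether strand was used in counting was not given in the sources used here. The authors deposited 30 tables of 6 libraries each, of which 8 were used. Each holds a signal, the deposited normalized read count (reads divided by the DESeq2 size factor of its library within that table). Multiplying by the recovered factor gave whole reads for 100% of 710484 values above 0, within 0.01 read. Fold changes and p-values of the authors' own comparisons were in the tables and were not used.

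Genes with at least 3 of 6 libraries at 10 or more were tested with limma 3.58.1 (R 4.3.3) with intensity trend on log2(normalized read count + 1), adjusted by Benjamini and Hochberg and called below 0.05. The method had been checked on simulated data. Levels of the other groups at 4 h were put on the scale of the 6 libraries by their median ratio to the geometric mean of those libraries. Gene positions are those of the deposited table, strand, transcript length and GC content come from GENCODE, and promoters come from RefSeq. Named genes were called, did not overlap between groups and had a mean of at least 50 in the higher group. They were the 12 largest and 12 most negative log2 fold changes and the 5 largest differences of means each way, besides members of the gene lists. The comparison, members and lists were chosen with earlier results of these data known, so list counts are descriptions and no set test was run. Some list members are not reported here by name.

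Same-numbered CBD and DMF libraries deviated together over 9881 genes (correlations 0.266, 0.631 and 0.162 at 4 h), so the numbers were taken to pair the libraries. DMF replicate 3 correlated as well with CBD replicate 1 (0.266), and DMF replicate 1 with CBD replicate 3 (0.160). Replicates 1 and 3 were therefore not told apart, and the pairing is an inference from the data. The main fit did not use it, and the blocked fit is given as an alternative. The alternatives were another normalization, edgeR 4.0.16, DESeq2 1.42.0, pseudocounts of 0.5 and 5, other filters, a fold limit, the replicate number as a block, all 18 libraries at 4 h, removal of a GC and length trend, and each library left out.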

Additional observations from a re-analysis of the deposited data

Results flagged for a closer look

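The CBD over DMF difference changed between 4 h and 24 h for 31 of the 33 named genes (limma interaction over 12 libraries, adjusted p below 0.05). These genes had been chosen for large differences at 4 h, which enter the contrast, so a shift toward 0 is partly built in and the count is a description. Values are the log2 fold change at 24 h minus that at 4 h, both within this fit, with 3 libraries in each of the 4 groups. Among genes higher with DMF at 4 h, the change was positive. It was Hmox1 4.79, Slc40a1 4.43, Srxn1 3.67, Gclm 3.06 and Slc7a11 2.28 for heme, iron and thiol genes, and Osgin1 2.00, Prdx1 1.36, Fth1 1.45, Sqstm1 2.63 and Pgd 0.65 for other antioxidant, iron storage and NADPH genes. It was Vegfd 3.31, Slc22a4 2.56, Procr 2.54, Aox1 2.48, Rnf183 2.13 and Gpat3 1.95 for the rest.

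Among genes higher with CBD at 4 h, the change was negative. It was Nos2 -4.94, Ccl20 -5.16, Tnf -1.98 and Cd14 -1.02 for inflammatory genes, and Gbp4 -3.54, Gbp5 -2.54, Ifit1bl1 -3.67, Gm5431 -4.22, Rnf213 -1.26 and Tnfsf10 -3.25 for interferon-related and neighbouring genes of the ranking. It was Asb2 -8.41, Sele -5.24, Cd69 -3.25, Plau -1.86 and Dab2 -0.67 for the others. At 24 h, 8 of the 33 genes were called in the opposite direction to 4 h, 4 in the same direction and 21 in neither. Mx1 (adjusted p = 0.0581) and Slc28a2b (adjusted p = 0.0613) did not pass. Groups held 3 libraries, so no library was tested for standing apart.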

How the results depend on the processing

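All 1770 called genes that an alternative tested kept their direction in it. The number called, 1770, was 1774 with TMM, 1768 with edgeR, 2019 with DESeq2, 463 past an absolute log2 fold change of 1, 2718 with all 18 libraries at 4 h and 2639 with the GC and length trend removed (1074 higher and 1565 lower with CBD). Leaving out 1 library gave 862 to 2023. With the replicate number as a block it was 2620 (1511 higher, 1109 lower), and 4264 with the trend removed as well (1642 and 2622), while 4258 genes changed with time in place of 3355.

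LPS-raised genes higher with CBD numbered 170 past the fold limit in place of 263. LPS-lowered ones numbered 6 past the fold limit, 114 with 18 libraries, 109 with trend removal and block, and 34 to 79 with 1 library left out, in place of 71. Those higher with DMF numbered 1 past the fold limit, 32 with the block, 34 with 18 libraries, 45 with the trend removed and 66 with trend removal and block, in place of 19, and LPS-raised ones 6 past the fold limit and 69 with trend removal and block, in place of 39. The share of called genes for which LPS alone lay nearer CBD, 97.2%, was 96.29% with DESeq2, 98.49% past the fold limit, 94.2% with the block, 93.71% with 18 libraries, 93.03% with the trend removed, 87.01% with trend removal and block, and 96.74 to 98.57% with 1 library left out. List members called numbered 79 past the fold limit and 207 with trend removal and block, in place of 131. Genes changed with time numbered 1232 past the fold limit and 2700 to 3594 with 1 library left out. The named genes called between vehicles rose from 0 to 10 with the block. Among named genes, Fth1, Cd14 and Dab2 lost their call past the fold limit, Fth1 without the filter on low values (adjusted p = 0.0646), and Fth1 and Cd14 with single libraries left out. None reversed. The cause of these changes was not tested. With 3 libraries a group, weakly expressed genes such as Il6 and Nqo1 rest on few reads.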
